A study of Homo sapiens with 12 samples.

Results

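The RNA-seq data hold 12 libraries from U251, an established cell line of human glioblastoma, 2 for each of 6 conditions, in which every culture had received an siRNA. The siRNA was a control (siNC) or 1 of 2 siRNAs that target *PD-L1* (gene symbol *CD274*), named siPDL1-1 and siPDL1-2. Stimulated cells were given IFNγ at 100 U/ml for 24 h, beginning 48 h after transfection, and unstimulated cells were not. The genes described here are 10 interferon-induced genes of the IFIT and IFITM families and their usual companions, *IFIT1*, *IFIT2*, *IFIT3*, *IFIT5*, *IFITM1*, *IFITM2*, *IFITM3*, *IFI6*, *IFI27* and *IFI44L*. They were chosen by symbol among the 45416 genes of the deposited table. All 10 were listed, and all 10 passed the filter on low reads that left 17982 genes for testing.

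Between 17101069 and 55657393 reads per library were counted on genes, and 1 read was worth between 0.0187 and 0.0586 CPM, the deposited unit, in which the reads of a gene are scaled to the size of the library. The cells had high levels of the glial and glioma genes *VIM* (3139 to 3968 CPM), *SOX2*, *NES*, *CD44*, *EGFR* and *SOX9*. Levels of the astrocyte genes *GFAP* (1.92 to 7.25 CPM) and *S100B* (2.40 to 5.92 CPM) were low. The 6 leukocyte genes examined together reached at most 0.899 CPM in any library, and *CD3E* never exceeded 1 read. The groups have 2 libraries each. The main test estimates the spread between libraries of a group over all 6 groups together, aided by the other genes. The p-values below rest on this spread, which may be partly technical. In bulk RNA, more cells expressing a gene and more RNA per cell cannot be told apart.

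The IFIT proteins are cytoplasmic proteins built of tetratricopeptide repeats that bind viral RNA or the translation machinery. The IFITM proteins are small membrane proteins that hinder the fusion of enveloped viruses with cell membranes. Type I and type III interferons switch these genes on through ISGF3, a complex containing STAT2 and IRF9 that binds the interferon-stimulated response element (ISRE) in promoters. IFNγ, the type II interferon, acts mainly through the gamma-activated site (GAS), and it induces many ISRE genes as well.

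The promoters are shown because the genes rose together after IFNγ and the response element is what they are known to share. In the RefSeq promoter table (GRCh38.p14, 250 bases before to 50 bases after the gene start), 8 of the 10 genes had an entry, and *IFIT2* and *IFITM2* were not in it. Each of the 8 held at least 2 matches to the ISRE core, searched on both strands as GAAA, 2 bases of any kind, and GAAA. Of all 27305 genes with a promoter in the table, 4.38% held a match and 0.311% held 2 or more. Below, the gene strand is printed 5′ to 3′ from just before the first match to just after the last. Capitals mark the matches, and a match on the opposite strand reads as TTTC, 2 bases and TTTC.
IFIT1 (chr10:89392499-89392537, plus strand): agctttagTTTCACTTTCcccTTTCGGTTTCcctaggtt
IFIT3 (chr10:89327833-89327892, plus strand): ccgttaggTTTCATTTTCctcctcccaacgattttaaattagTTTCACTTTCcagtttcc
IFIT5 (chr10:89414515-89414581, plus strand): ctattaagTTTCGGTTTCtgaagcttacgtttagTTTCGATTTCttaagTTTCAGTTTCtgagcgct
IFITM1 (chr11:313992-314051, plus strand): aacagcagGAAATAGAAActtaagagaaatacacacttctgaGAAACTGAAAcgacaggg
IFITM3 (chr11:320878-320920, minus strand): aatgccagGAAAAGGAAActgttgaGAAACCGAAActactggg
IFI6 (chr1:27672268-27672356, minus strand): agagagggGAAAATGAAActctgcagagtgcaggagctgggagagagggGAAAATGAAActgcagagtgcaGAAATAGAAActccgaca
IFI27 (chr14:94110620-94110658, plus strand): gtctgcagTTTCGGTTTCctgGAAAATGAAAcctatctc
IFI44L (chr1:78620276-78620392, plus strand): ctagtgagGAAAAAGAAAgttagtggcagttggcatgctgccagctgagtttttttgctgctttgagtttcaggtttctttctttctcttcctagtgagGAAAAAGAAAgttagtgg

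The 8 promoters held 18 ISRE core matches in all, 3 each in *IFIT5* and *IFI6* and 2 in each of the others. All matches of the 3 IFIT genes were on the opposite strand, and those of *IFITM1*, *IFITM3*, *IFI6* and *IFI44L* were on the gene strand. The matches of *IFIT5* and *IFITM1* reached the gene start, whereas those of *IFIT3*, *IFI6* and *IFI44L* began well before it (at -156, -156 and -164). In *IFI6* the longest exact repeat before the start was 29 bases, repeated at a distance of 41 bases, and in *IFI44L* it was 85 bases, repeated at 91 bases. Each of these repeats carried an ISRE core match. The GAS core, searched as TTC, 3 bases of any kind and GAA, was matched in *IFITM1* and *IFI27* only, and 9.38% of all promoters held it. In *IFITM1* it shared 3 bases with an ISRE core match, and in *IFI27* it lay across both ISRE core matches and shared 6 bases with them. These matches describe the letters of the windows and are not measured binding sites.

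**Figure D1:**
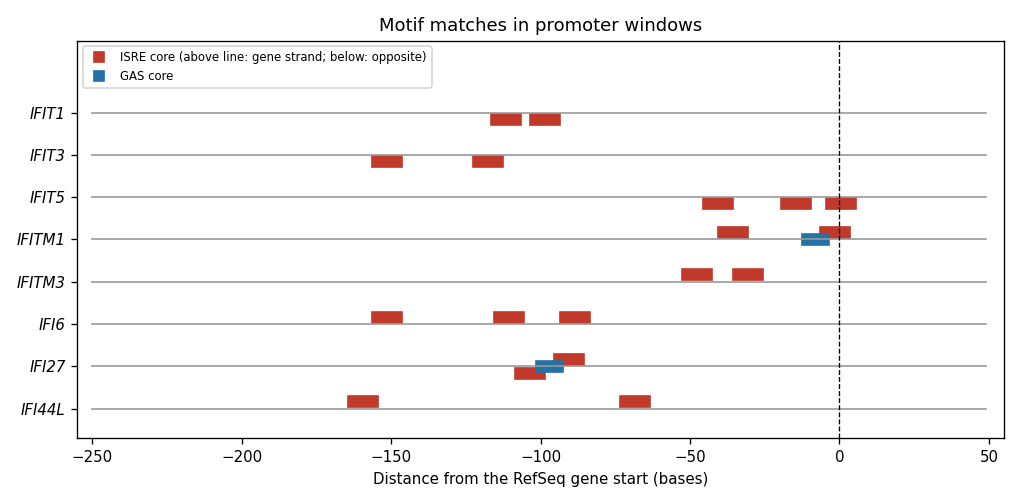
Matches to the ISRE core (red) and the GAS core (blue) in 8 promoter windows, by distance in bases from the RefSeq gene start. Each of the 8 genes holds 2 or 3 ISRE core matches between -164 and 5 bases of the start, and only *IFITM1* and *IFI27* hold a GAS core match.

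In the deposited coordinates (GRCh38), the 4 IFIT genes lie on chromosome 10 between 89283694 and 89420997, on the plus strand. *IFITM1*, *IFITM2* and *IFITM3* lie together on chromosome 11, *IFI6* and *IFI44L* on chromosome 1 and *IFI27* on chromosome 14. The interval given for *IFITM2* (307631 to 315272) contains that of *IFITM1* (313506 to 315272), and the family members resemble each other in sequence, so reads of this pair may have been split between them. *IFIT1*, *IFIT2* and *IFIT3* lie inside the interval of *LIPA*, a lysosomal lipase gene on the opposite strand, and reads were counted on both strands. *LIPA* went from 53.7 to 92.8 CPM after IFNγ in siNC cells, from 98.0 to 158 CPM in siPDL1-1 cells and from 96.5 to 109 CPM in siPDL1-2 cells. *IFIT5*, *IFI27* and *IFI44L* overlap no other listed gene.

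The targeted gene was measured first. *CD274* stood at 4.60 and 4.91 CPM in unstimulated siNC libraries, 2.67 and 2.73 in siPDL1-1 and 3.57 and 3.45 in siPDL1-2. After IFNγ it stood at 71.2 and 76.0 CPM in siNC, 60.9 and 66.7 in siPDL1-1 and 37.5 and 35.0 in siPDL1-2. The libraries of both siRNAs lay below those of siNC in each state. Differences were tested with limma on log2(CPM + 1) and called at FDR < 0.01 and a fold change above 1.5. By this rule *CD274* fell with siPDL1-2 after IFNγ (log2 fold change -1.001 ± 0.076 SE, FDR = 4.25e-07) and with siPDL1-1 in unstimulated cells (-0.64 ± 0.08, FDR = 1.76e-05). With siPDL1-1 after IFNγ the difference was -0.20 ± 0.08 (FDR = 0.0498) and was not called. For the stimulated siPDL1-1 libraries the targeted gene is thus only a weak check of the labels.

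After IFNγ the 10 genes reached very different levels in the 3 siRNA groups. Together they made up 1311 CPM in siNC cells, 4983 CPM in siPDL1-1 cells and 1412 CPM in siPDL1-2 cells (means of 2 libraries). Without IFNγ the sums were 432.9, 632.5 and 476.7 CPM. The values of each gene follow, by family.

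*IFIT1* encodes a protein that binds RNA whose cap lacks a host methyl mark. It stood at 9.70 and 8.55 CPM in the unstimulated siNC libraries, 19.5 and 18.8 CPM in siPDL1-1 and 7.76 and 7.33 CPM in siPDL1-2. After IFNγ it stood at 52.9 and 51.6 CPM in siNC, 581 and 613 CPM in siPDL1-1 and 34.2 and 35.6 CPM in siPDL1-2. The 6 groups did not overlap, and in both states siPDL1-2 was lowest and siPDL1-1 highest. *IFIT2*, whose product binds AU-rich RNA, stood without IFNγ at 3.77 and 3.67 CPM in siNC, 9.11 and 10.1 CPM in siPDL1-1 and 5.22 and 5.62 CPM in siPDL1-2. Stimulated cells had 60.7 and 64.5 CPM of it in siNC, 644.8 and 658.6 CPM in siPDL1-1 and 55.4 and 57.5 CPM in siPDL1-2. Again no groups overlapped, and the siPDL1-1 libraries after IFNγ stood about an order of magnitude above the other stimulated libraries.

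*IFIT3* encodes a partner that binds and stabilizes IFIT1. Its unstimulated levels were 2.69 and 2.23 CPM in siNC, 7.60 and 7.67 CPM in siPDL1-1 and 2.61 and 2.81 CPM in siPDL1-2, so that siNC and siPDL1-2 overlapped. With IFNγ the levels were 96.0 and 92.8 CPM in siNC, 699.7 and 720.9 CPM in siPDL1-1 and 105 and 113 CPM in siPDL1-2. *IFIT5*, which acts as a monomer on RNA with triphosphate ends, differed from the other IFIT genes before stimulation. It had 21.6 and 22.5 CPM in siNC, 23.4 and 21.7 CPM in siPDL1-1 and 23.8 and 26.4 CPM in siPDL1-2, and siNC and siPDL1-1 overlapped. Under IFNγ it had 65.1 and 68.0 CPM in siNC, 156 and 170.5 CPM in siPDL1-1 and 58.8 and 58.6 CPM in siPDL1-2. The stimulated siPDL1-1 libraries were the highest of the 12 here too, by a smaller margin than for the other 3 IFIT genes.

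*IFITM1*, whose product sits mainly at the plasma membrane, was already abundant without IFNγ. Its levels then were 164 and 157 CPM in siNC, 262 and 253 CPM in siPDL1-1 and 192 and 193 CPM in siPDL1-2. Stimulation took it to 575 and 581 CPM in siNC, 1351 and 1291 CPM in siPDL1-1 and 619.6 and 653.6 CPM in siPDL1-2. The groups were in the same order in both states, with siNC lowest and siPDL1-1 highest. *IFITM3*, the endosomal restriction factor for influenza virus, had 25.8 and 22.5 CPM in unstimulated siNC, 36.8 and 35.6 CPM in siPDL1-1 and 24.9 and 24.6 CPM in siPDL1-2. Upon IFNγ it had 169 and 161 CPM in siNC, 310.5 and 297.7 CPM in siPDL1-1 and 165.5 and 175.9 CPM in siPDL1-2. For this gene siNC and siPDL1-2 overlapped in both states, and siPDL1-1 stood above both.

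*IFITM2*, a close endosomal relative of *IFITM3*, varied least. Without IFNγ it had 196 and 184 CPM in siNC, 238 and 239.8 CPM in siPDL1-1 and 199 and 198 CPM in siPDL1-2. Stimulated libraries had 199 and 209.9 CPM in siNC, 322 and 315 CPM in siPDL1-1 and 199.8 and 219.5 CPM in siPDL1-2. The stimulated siNC libraries overlapped those of siPDL1-2 in both states, while unstimulated siPDL1-1 cells already stood above them. As *IFITM1* is counted within the same interval, the part of its reads in these values was not tested.

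*IFI6* encodes a small membrane protein of mitochondria and the endoplasmic reticulum. It stood at 17.7 and 19.8 CPM in unstimulated siNC, 33.6 and 32.2 CPM in siPDL1-1 and 17.2 and 17.3 CPM in siPDL1-2. IFNγ brought it to 55.7 and 47.3 CPM in siNC, 501 and 461 CPM in siPDL1-1 and 80.9 and 95.3 CPM in siPDL1-2. The stimulated siPDL1-2 libraries lay clearly above those of siNC for this gene. *IFI27*, a mitochondrial protein gene often used as a marker of interferon activity, was the least abundant in CPM. Its unstimulated levels of 0.637 and 0.481 CPM in siNC, 2.41 and 1.95 CPM in siPDL1-1 and 0.839 and 1.01 CPM in siPDL1-2 rested on 13 to 83 reads per library. After IFNγ they were 8.84 and 7.72 CPM in siNC, 102 and 86.4 CPM in siPDL1-1 and 15.1 and 14.9 CPM in siPDL1-2, with no overlap between groups. *IFI44L*, another widely used interferon marker, had 1.37 and 1.62 CPM in unstimulated siNC, 5.74 and 6.05 CPM in siPDL1-1 and 1.27 and 1.62 CPM in siPDL1-2. It rose to 27.2 and 28.1 CPM in siNC, 322 and 359.8 CPM in siPDL1-1 and 32.8 and 33.4 CPM in siPDL1-2. Only its unstimulated siNC and siPDL1-2 libraries overlapped.

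**Figure D2:**
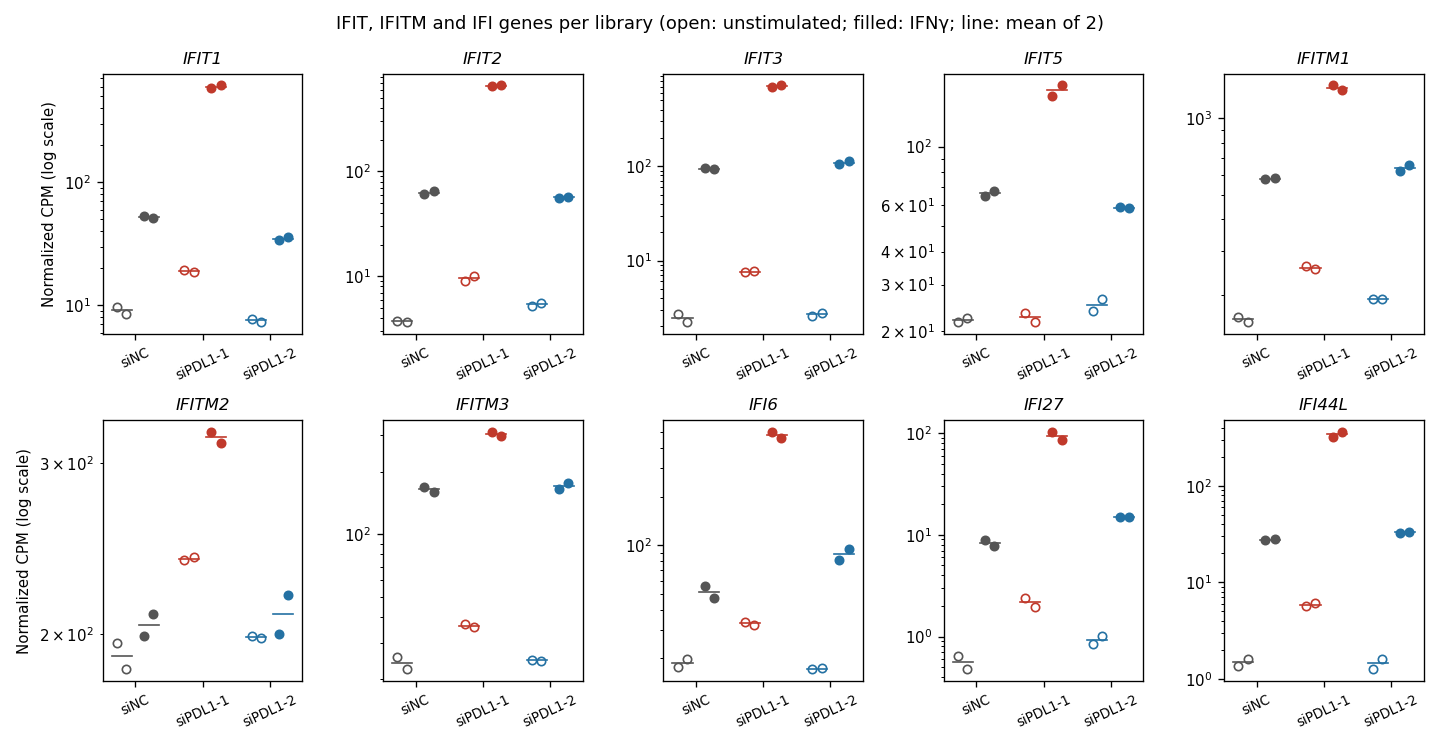
Normalized CPM on a log axis for the 10 genes, 1 panel each, by siRNA. Open points are unstimulated libraries, filled points are IFNγ-stimulated libraries and lines are means of 2 libraries, and the stimulated siPDL1-1 libraries are the highest in every panel (581 and 613 CPM for *IFIT1* against 52.9 and 51.6 CPM in siNC).

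Levels were compared between genes only after division by the length of the canonical transcript, as CPM per kilobase. In unstimulated siNC cells *IFITM1* was the highest at 240.3 and *IFITM2* followed at 189 CPM per kilobase. *IFITM3* and *IFI6* had 39.5 and 23.1, the 4 IFIT genes ranged from 1.03 (*IFIT3*) to 5.47 (*IFIT5*), and *IFI27* and *IFI44L* had 0.771 and 0.257 CPM per kilobase. In stimulated siPDL1-1 cells *IFITM1* remained first at 1978 CPM per kilobase. *IFI6* stood second with 593, *IFIT3* had 297, and *IFIT5* was last with 40.5 CPM per kilobase. *IFIT5* was thus the highest IFIT gene per length before stimulation with siNC and the lowest of the 10 genes after IFNγ with siPDL1-1.

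To ask how IFNγ acted on these genes, stimulated cells were compared with unstimulated cells that had the same siRNA. In siNC cells 9 of the 10 genes rose, against 6.67% of all genes tested. The increases ran from 1.41 ± 0.09 (*IFI6*, FDR = 3.38e-08) to 4.79 ± 0.07 (*IFIT3*, FDR = 7.69e-17) on the log2(CPM + 1) scale, and the median of the 10 was 2.48, where the median of all genes was 0.00. *IFIT2* rose by 3.75 ± 0.06 and *IFI44L* by 3.52 ± 0.09, whereas *IFIT5* and *IFITM1* rose by 1.55 ± 0.06 and 1.84 ± 0.04. *IFITM2* was not called (0.11 ± 0.05, FDR = 0.1004, 95% CI 0.00 to 0.21).

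The same 9 genes rose in siPDL1-1 cells, against 5.58% of all genes, and in siPDL1-2 cells, against 3.62%. With siPDL1-1 the median change was 4.36, and *IFIT3* (6.36 ± 0.07), *IFIT2* (5.95 ± 0.06) and *IFI44L* (5.63 ± 0.09) had the largest increases. In CPM these were ratios of 93.0, 67.9 and 57.8 over unstimulated siPDL1-1 cells. With siPDL1-2 the median change was 2.51, and the increases ran from 1.20 ± 0.06 (*IFIT5*) to 4.89 ± 0.07 (*IFIT3*). *IFITM2* passed the FDR but not the fold threshold in siPDL1-1 cells (0.41 ± 0.05, FDR = 8.76e-06), and its interval in siPDL1-2 cells was -0.03 to 0.18 (FDR = 0.272).

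**Figure D3:**
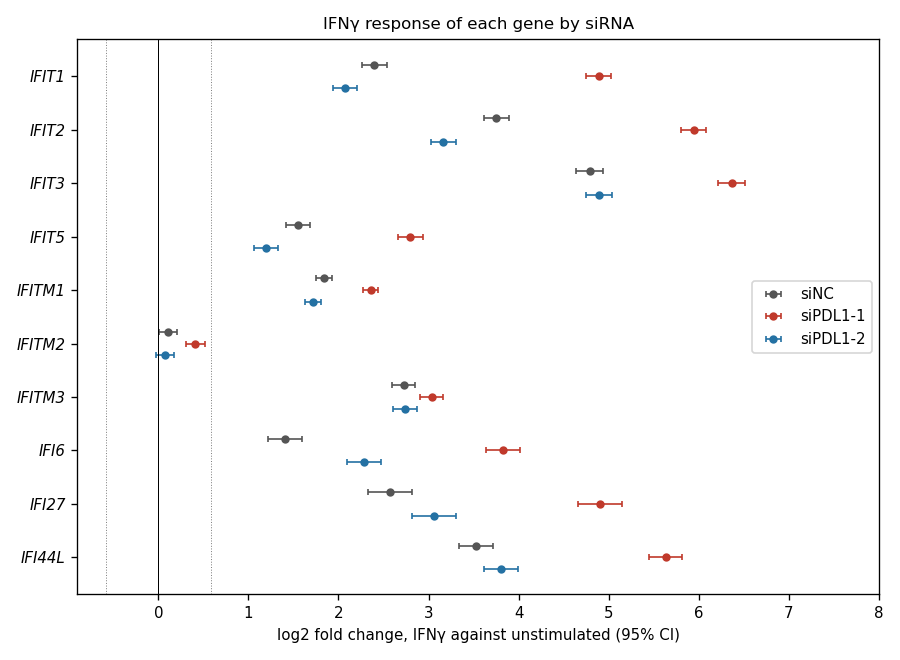
log2 fold change of IFNγ-stimulated over unstimulated cells for each gene and siRNA, with 95% confidence intervals from limma and dotted lines at a fold change of 1.5. *IFIT1* moved by 2.40 in siNC, 4.89 in siPDL1-1 and 2.07 in siPDL1-2, and the intervals of *IFITM2* end at 0.52 or below in all 3 groups.

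The effect of each siRNA was then examined in unstimulated cells. With siPDL1-1, 7 of the 10 genes rose over siNC, against 2.55% of all genes tested. These were *IFI44L* (1.47 ± 0.09, FDR = 2.24e-08), *IFIT3* (1.32 ± 0.07), *IFIT2* (1.17 ± 0.06), *IFI27* (1.03 ± 0.11), *IFIT1* (1.00 ± 0.06), *IFI6* (0.78 ± 0.09) and *IFITM1* (0.68 ± 0.04, FDR = 2.28e-08). *IFITM3* (0.57 ± 0.06, FDR = 5.68e-06) and *IFITM2* (0.33 ± 0.05, FDR = 0.000113) passed the FDR but not the fold threshold. *IFIT5* was at 0.03 ± 0.06 (FDR = 0.766), with a 95% interval of -0.11 to 0.17. The median of the 10 genes was 0.89, and that of all genes was 0.02.

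With siPDL1-2 none of the 10 genes was called in unstimulated cells by limma, edgeR or DESeq2, against 6.17% of all genes called in either direction by limma. At an unadjusted p under 0.05, limma had 5 of them. At FDR < 0.05 with no fold threshold limma had 5 as well, beside 7338 of all 17982 genes. The values ranged from -0.24 ± 0.06 (*IFIT1*, FDR = 0.00726) to 0.44 ± 0.06 (*IFIT2*, FDR = 7.52e-05), with a median of 0.08. *IFITM1* was at 0.26 ± 0.04 (FDR = 0.000120). The upper ends of the 95% intervals stayed at or below 0.58 for all 10 genes on the log2(CPM + 1) scale. This scale makes the change of *IFI27* smaller, at 0.923 CPM against 0.559 CPM in siNC (ratio 1.65). With a pseudocount of 0.1 *IFI27* was at 0.64 and was called.

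After IFNγ all 10 genes were higher with siPDL1-1 than with siNC, against 3.73% of all genes. The genes fell into a group of large and a group of smaller differences. *IFI44L* (3.57 ± 0.09), *IFIT1* (3.49 ± 0.06), *IFIT2* (3.36 ± 0.06), *IFI27* (3.36 ± 0.11), *IFI6* (3.20 ± 0.09) and *IFIT3* (2.90 ± 0.07) differed by 7.53 to 12.3 times in CPM. *IFIT5* (1.28 ± 0.06), *IFITM1* (1.19 ± 0.04), *IFITM3* (0.88 ± 0.06) and *IFITM2* (0.64 ± 0.05, FDR = 1.11e-07) differed by 1.56 to 2.45 times. The median was 3.05, and the stimulated siNC level of *IFI44L* was 8.11% of that in siPDL1-1 cells.

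In contrast, siPDL1-2 after IFNγ left 8 of the 10 genes uncalled, where 3.13% of all genes were called in either direction. The other 2 rose, against 1.92% of all genes higher. *IFI27* was higher by 0.79 ± 0.11 (FDR = 0.000139) and *IFI6* by 0.76 ± 0.09 (FDR = 3.48e-05). *IFIT1* was lower in CPM by a ratio of 0.669, at -0.57 ± 0.06 (FDR = 1.63e-05), which fell short of the fold threshold. The intervals of *IFITM2* (-0.07 to 0.14) and *IFITM3* (-0.08 to 0.18) included 0. For the other 5 genes the values ran from -0.18 (*IFIT5*) to 0.25 (*IFI44L*). Both siRNAs were compared with the same siNC libraries, so the 2 comparisons are not independent. After IFNγ *CD274* was at 63.8 CPM with siPDL1-1 and 36.3 CPM with siPDL1-2. Before stimulation it was at 2.70 CPM with siPDL1-1 and 3.51 CPM with siPDL1-2 (-0.29 ± 0.08, FDR = 0.00865, under the fold threshold). Both siRNAs lay below siNC for *CD274* in each state, and a relation between its level and the 10 genes was not tested.

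**Figure D4:**
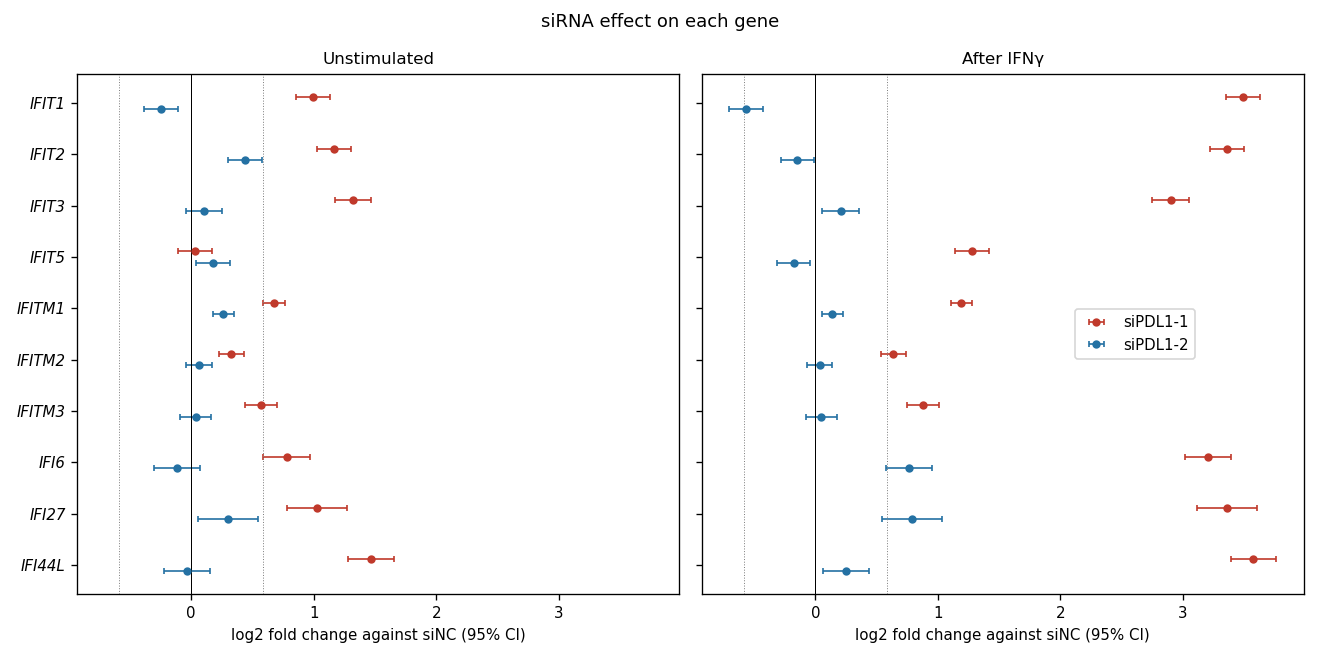
log2 fold change of siPDL1-1 (red) and siPDL1-2 (blue) over siNC in unstimulated (left) and IFNγ-stimulated (right) cells, with 95% confidence intervals from limma and dotted lines at a fold change of 1.5. After IFNγ, 6 genes with siPDL1-1 lie between 2.90 and 3.57, and all genes with siPDL1-2 lie between -0.57 and 0.79.

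The siRNAs against *PD-L1* were also compared directly. Before stimulation, 6 genes were higher with siPDL1-1 than with siPDL1-2, against 0.884% of all genes, from *IFIT2* (0.72 ± 0.06) to *IFIT1* (1.24 ± 0.06) and *IFI44L*, whose CPM was 4.08 times as high. *IFIT5* and the 3 *IFITM* genes were not called, and *IFIT5* had an interval of -0.28 to -0.01. After IFNγ all 10 were higher with siPDL1-1, against 1.79% of all genes. The differences ran from 0.60 ± 0.05 (*IFITM2*) to 4.06 ± 0.06 (*IFIT1*), with a median of 2.51. *IFITM2* was the only one of the 10 near the fold threshold, and without siPDL1-2 replicate 1 its difference was 0.54 and was not called.

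Whether the response to IFNγ itself differed between siRNAs was tested with an interaction term over all 12 libraries. With siPDL1-1 the response was larger than with siNC for 7 of the 10 genes, against 0.89% of all genes. *IFIT1* gained 2.49 ± 0.09 (FDR = 2.43e-10), *IFI6* 2.42 ± 0.12, *IFI27* 2.33 ± 0.16, *IFIT2* 2.19 ± 0.09, *IFI44L* 2.11 ± 0.12, *IFIT3* 1.58 ± 0.10 and *IFIT5* 1.25 ± 0.09 (FDR = 3.93e-07). For genes with few unstimulated reads these values were larger than by edgeR on reads, since the added 1 CPM reduces the smaller response more. By edgeR *IFI27* was at 1.54 (FDR = 0.0131, not called), *IFI44L* at 1.72 and *IFIT3* at 1.28. None of the 3 *IFITM* genes was called. *IFITM1* was at 0.51 ± 0.06 (FDR = 4.72e-05), *IFITM2* at 0.31 ± 0.07 (FDR = 0.0212) and *IFITM3* at 0.31 ± 0.09 (FDR = 0.0644, 95% CI 0.13 to 0.49). For *IFIT5* the interaction came with no difference before stimulation, while for *IFITM3* a difference of 0.57 before stimulation became 0.88 after it.

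With siPDL1-2 the interaction was called for *IFI6*, whose response was larger by 0.87 ± 0.12 (FDR = 0.000260), against 1.84% of all genes with a larger response. For *IFIT2* the response was smaller by a log2 difference of -0.59 ± 0.09 (FDR = 0.000329), against 5.78% of all genes with a smaller response. The *IFIT2* value lies at the fold threshold and was not called when any 1 of 4 libraries was left out (-0.57 to -0.55). The remaining 8 values ran from -0.35 (*IFIT5*) to 0.48 (*IFI27*).

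Other genes of the interferon response were read from lists written with earlier results of these data known. The first holds 31 type I interferon-stimulated genes outside the 10, such as *MX1*, *OAS1* and *ISG15*. Of these, 28 rose with IFNγ in siNC cells (median 2.05), 29 in siPDL1-1 cells (median 4.34) and 27 in siPDL1-2 cells (median 1.99), against 6.67%, 5.58% and 3.62% of all genes, and *XAF1* had the largest increase in each (5.19, 7.19 and 5.51). After IFNγ, 29 of the 31 were higher with siPDL1-1 than with siNC (median 2.18), against 3.73% of all genes, led by *MX2* (4.79 ± 0.12), a GTPase that restricts retroviruses, and *OAS2* (4.34 ± 0.10), a sensor of double-stranded RNA. With siPDL1-2 1 was higher, *HERC6* (0.66 ± 0.12), against 1.92% of all genes, and the median was 0.09. In unstimulated cells 8 rose with siPDL1-1, against 2.55% of all genes, among them *OAS1* (1.54 ± 0.10) and *OASL* (1.32 ± 0.10). With siPDL1-2 in unstimulated cells limma called 0, against 4.84% of all genes higher, and edgeR and DESeq2 called 1 each. By limma 13 had an unadjusted p under 0.05. The share of all genes at that p is not given here, and 7338 of all 17982 genes passed the stricter FDR < 0.05. The ISRE core was matched in 15 of the 24 of these genes with a promoter entry (62.5%).

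The second list holds 24 genes typically induced by IFNγ, such as *IDO1*, *CXCL10* and *CD74*. All 24 rose with IFNγ in each siRNA group, against the same 6.67%, 5.58% and 3.62% of all genes, with medians of 4.89 in siNC, 4.58 in siPDL1-1 and 4.47 in siPDL1-2. After IFNγ, 1 was higher with siPDL1-1 than with siNC, *SOCS1* (1.67 ± 0.12), an inhibitor of JAK kinases, and 3 were lower, against 3.73% of all genes higher and 1.75% lower, including the chemokine gene *CXCL11* (-1.15 ± 0.12) and the tryptophan-degrading enzyme gene *IDO1* (-1.10 ± 0.07). The median of the list was -0.09. With siPDL1-2, 6 of the 24 were lower and 0 higher by limma, edgeR and DESeq2, against 1.2% of all genes lower by limma. *CXCL10* was at -2.05 ± 0.09 and the median was -0.25. At an unadjusted p under 0.05 limma had 16 of the 24 in either direction. The share of all genes at that p is not given here, and 5510 of all 17982 genes passed the stricter FDR < 0.05. The ISRE core was matched in 10 of 15 of these promoters (66.7%), and the GAS core in 7 (46.7%).

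**Figure D5:**
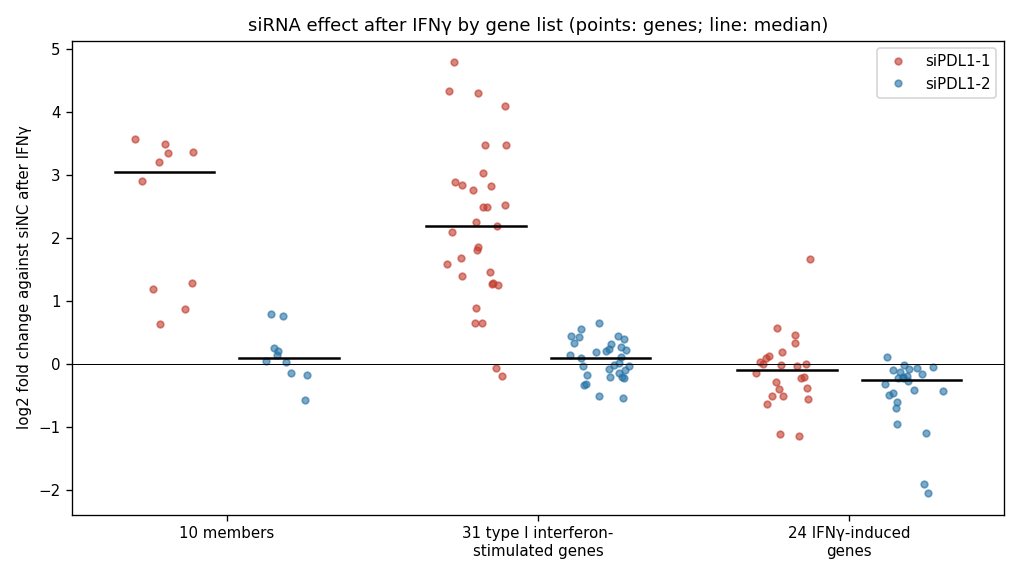
log2 fold change over siNC after IFNγ for the 10 genes, 31 other type I interferon-stimulated genes and 24 IFNγ-induced genes, with siPDL1-1 in red and siPDL1-2 in blue, 1 point per gene and a line at the median. With siPDL1-1 the medians are 3.05, 2.18 and -0.09, and with siPDL1-2 they are 0.09, 0.09 and -0.25.

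Among 7 further relatives of the 10 genes, 5 could be tested. *IFI44*, the neighbor and close relative of *IFI44L* (also in the list of 31), had 31.5 CPM in stimulated siNC, 231 in stimulated siPDL1-1 and 33.7 in stimulated siPDL1-2 cells (means of 2 libraries). It rose by 2.84 ± 0.08 with siPDL1-1 over siNC after IFNγ. *IFI27L1* and *IFI27L2*, relatives of *IFI27*, stayed between 12.9 and 16.3 CPM and between 24.97 and 32.4 CPM in the 12 libraries and were called in no comparison. *IFIT1B* had at most 20 reads in a library, all of them in stimulated siNC and siPDL1-1 cells. *IFITM10* was higher with siPDL1-1 in unstimulated cells (0.92 ± 0.13) and with siPDL1-1 was at -0.58 ± 0.13 in response to IFNγ, which limma did not call and edgeR and DESeq2 called lower.

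The interferons that act on these genes through ISGF3 were near 0 in most libraries. *IFNL1*, which encodes a type III interferon, had 59 and 36 reads in the stimulated siPDL1-1 libraries and 0 or 1 in each of the others. *IFNB1*, the gene of interferon beta, had 18 and 26 reads there and at most 2 elsewhere. *IFNL2* had 28 and 14 reads there and 0 elsewhere, where a count of 0 allows up to 3 reads, or 0.0562 to 0.176 CPM depending on the library (counting error only). The 11 ligand genes listed added up to 3.43 and 3.86 CPM in stimulated siPDL1-1 cells and to between 0.0706 and 0.353 CPM in all other libraries. *IFNG* itself had 0 reads in every library. The 3 genes that passed the filter, *IFNB1*, *IFNL1* and *IFNL2*, did so through the stimulated siPDL1-1 libraries. Testing them in those libraries was therefore nearly decided by the filter, and their reads are given here without calls. The part of these transcripts in the levels of the 10 genes was not tested.

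Of 12 genes for interferon receptors, their kinases and ISGF3, 3 were higher with siPDL1-1 than with siNC after IFNγ by limma, against 3.73% of all genes, and 4 by edgeR and by DESeq2. *STAT2* stood at 134 and 132 CPM in siNC, 416 and 391 CPM in siPDL1-1 and 161 and 155 CPM in siPDL1-2, a difference of 1.59 ± 0.05 for siPDL1-1. *JAK2* (0.67 ± 0.07) and *IRF9* (0.65 ± 0.06) were the others. *STAT2* and *IRF9* are also in the list of 31 type I interferon-stimulated genes and were counted there. The receptor genes *IFNAR2*, *IFNGR1*, *IFNGR2* and *IL10RB* differed from siNC by between -0.06 and 0.11 with siPDL1-1 and were not called. *IFNAR1* (0.52 ± 0.06, FDR = 6.81e-06) and *IFNLR1* (0.52 ± 0.11, FDR = 0.00140), the other receptor genes, passed the FDR but not the fold threshold with limma, and *IFNLR1* was called by edgeR (0.59) and DESeq2 (0.60).

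How alike the 10 genes were was described by Pearson's r of log2(CPM + 1) over the 12 libraries, which share 6 conditions and are not independent points. Between the 9 genes other than *IFITM2*, r lay between 0.883 and 0.997, and the highest was that of *IFIT3* with *IFITM1*. *IFITM2* had r between 0.592 and 0.866 with the others and was least like *IFITM3*.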

How the data were processed

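RNA of U251 cells was sequenced after poly(A) selection in 12 libraries. In CLC Genomics Workbench, the authors aligned reads to the Ensembl-annotated GRCh38 genome, ignored broken pairs and counted without regard to strand. The deposited signal values are the authors' normalized CPM, whose library sums are 0.965 to 1.04 times those of plain CPM. Reads were recovered from them (100% of values whole within 0.01 read) and used for the filter (filterByExpr, minimum count 10, minimum total 15) and for edgeR and DESeq2. Groups came from the sample labels. The main test was limma on log2(CPM + 1), with trend and robust empirical Bayes, over all 12 libraries as 6 groups, and FDR was adjusted over 17982 genes. The + 1 makes fold changes of low genes smaller, and can make a difference between 2 such changes larger.

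The 10 genes, the gene lists, the tests and the alternatives were chosen with earlier results of these data known. In the lists, the genes named are the called genes with the largest rise and fall, up to 2 each, and others named were chosen after their values were seen. For likeness, the 2 genes with the highest r among 14278 genes of at least 1 CPM were taken. Promoters are RefSeq sequences. The tests were checked on simulated data. Depth was 17101069 to 55657393 reads per library, the limit for 0 reads covers counting error only, and limma's intervals come from the spread between libraries. The alternatives were edgeR, DESeq2, DESeq2 size factors, plain CPM, a pseudocount of 0.1, no filter, the replicate number as a block, fits without each library, fits of the compared libraries only, and FDR < 0.05 without a fold threshold. The labels name a column kit and a NovaSeq instrument, and the study's methods name TRIzol and a HiSeq. Versions were limma 3.58.1 and DESeq2 1.42.0 with edgeR 4.0.16 in R 4.3.3, and Python 3.11.15. Results for 2 of the listed genes are not reported here.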

Additional observations from a re-analysis of the deposited data

Results flagged for a closer look

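The response of 7 of the 10 genes to IFNγ differed between cells with siPDL1-1 and cells with siNC by the interaction test of limma, against 0.89% of all genes with a larger response. These 2 groups thus responded differently to the same stimulus. With siPDL1-1 the response was larger for *IFIT1* (2.49, FDR = 2.43e-10), *IFI6* (2.42, FDR = 3.29e-08), *IFI27* (2.33, FDR = 2.17e-07; 1.54 and not called by edgeR) and *IFIT2* (2.19, FDR = 1.08e-09). It was also larger for *IFI44L* (2.11, FDR = 3.10e-08), *IFIT3* (1.58, FDR = 5.72e-08) and *IFIT5* (1.25, FDR = 3.93e-07). The stimulated siPDL1-1 libraries lay above both stimulated siNC libraries for all 10 genes, also for the 3 *IFITM* genes without a called interaction. This separation of levels therefore does not by itself show a larger response, and the share of all genes separated in this way was not counted. With siPDL1-2 the response of *IFI6* was larger (0.87, FDR = 0.000260), against 1.84% of all genes. Both stimulated libraries were above those of siNC (80.9 and 95.3 CPM against 55.7 and 47.3 CPM). For *IFIT2* the siPDL1-2 response was smaller (-0.59, FDR = 0.000329), against 5.78% of all genes. Its stimulated levels were 55.4 and 57.5 CPM against 60.7 and 64.5 CPM in siNC, and its unstimulated levels were 5.22 and 5.62 CPM against 3.77 and 3.67 CPM. With DESeq2 size factors (-0.55) or plain CPM (-0.56) this response fell below the fold threshold. Fits without each library in turn gave -0.63 to -0.55.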

How the results depend on the processing

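Over 110 pairs of a gene and a comparison, 2149 of 2180 values under an alternative kept their direction and their side of the thresholds, 9 lost the call, 6 gained one and 16 changed sign, none of these 16 being called in either fit. The number of the 10 genes called moved as follows. At FDR < 0.05 with no fold threshold, 5 were called for siPDL1-2 in unstimulated cells, 7 after IFNγ and 5 in the interaction. Of all 17982 genes tested, that rule called 7338, 5510 and 5316 in these 3 comparisons. The same rule called 9 instead of 7 for siPDL1-1 in unstimulated cells, 9 instead of 6 between the siRNAs there, 9 instead of 7 in the siPDL1-1 interaction and 10 instead of 9 for IFNγ in siPDL1-1 cells. Over all genes it called 5200, 6603, 572 and 6089 in these comparisons. By edgeR 6 instead of 7 were called in the siPDL1-1 interaction. A pseudocount of 0.1 called 1 for siPDL1-2 in unstimulated cells (*IFI27*, 0.64). DESeq2 size factors and plain CPM left 1 and 1 in the siPDL1-2 interaction, since *IFIT2* fell below the fold threshold (-0.55 and -0.56). Without each library in turn, the numbers called were 9 for IFNγ in every siRNA group, 7 to 8 and 10 for siPDL1-1 against siNC before and after IFNγ, 0 and 2 to 3 for siPDL1-2, 6 and 9 to 10 between the siRNAs, and 7 and 1 to 2 in the interactions. The call of *IFIT2* in the siPDL1-2 interaction was lost without replicate 2 of unstimulated siNC, replicate 2 of stimulated siNC, replicate 2 of unstimulated siPDL1-2 or replicate 1 of stimulated siPDL1-2. *IFITM2* between the siRNAs after IFNγ was 0.57 with plain CPM and not called. *IFITM3* with siPDL1-1 in unstimulated cells was called with a pseudocount of 0.1 (0.59), without replicate 1 of siNC (0.66) and without replicate 2 of siPDL1-1 (0.59). *IFIT1* with siPDL1-2 after IFNγ was called without replicate 2 of siNC (-0.59) or replicate 2 of siPDL1-2 (-0.60). The cause of these changes was not tested.

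The values that changed sign were *IFIT5* with siPDL1-1 in unstimulated cells (-0.009 by edgeR, -0.021 to 0.084 without 1 library), *IFITM3* with siPDL1-2 in unstimulated cells (-0.057 to 0.131 without 1 library, negative without siNC replicate 2), and *IFI44L* there (-0.135 to 0.071, and 0.04 without siNC replicate 2). *IFITM2* with siPDL1-2 after IFNγ was -0.033 to 0.102 without 1 library (-0.0033 without siNC replicate 1). In the siPDL1-2 interaction *IFITM2* was 0.0068 by edgeR, 0.0139 by DESeq2, 0.0117 with its size factors and -0.0979 to 0.037 without 1 library (0.014 and 0.0071 in between), and *IFITM3* was -0.082 to 0.106 without 1 library (-0.026 and -0.032 in between).

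Over all genes, FDR < 0.05 with no fold threshold called 6895, 6089 and 5201 genes for IFNγ with siNC, siPDL1-1 and siPDL1-2 (1460, 1236 and 947 by the main rule). For siPDL1-1, siPDL1-2 and their difference it called 5200, 7338 and 6603 in unstimulated cells (720, 1110 and 783) and 6330, 5510 and 3453 after IFNγ (984, 562 and 401). For the interactions it called 572 and 5316 (174 and 1370). Without each library these numbers ranged, in the same order, from 1268 to 1613, 1084 to 1608, 792 to 964, 604 to 748, 960 to 1127, 648 to 797, 843 to 1176, 402 to 732, 384 to 506, 137 to 213 and 890 to 1662. The lowest siPDL1-2 interaction count, 890, came without replicate 2 of stimulated siPDL1-2.

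The values gave little sign that replicate numbers pair the samples, which does not exclude pairing. The study's methods state that the libraries came from 2 independent experiments. The correlation of the difference between replicates 1 and 2 across 15 pairs of groups ran from -0.132 to 0.193 and was above 0.1 in 2. With the replicate number as a block, the 10 genes had the same counts of calls in every comparison (9, 9, 9, 7, 0, 6, 10, 2, 10, 7 and 2), and the siPDL1-1 effect after IFNγ had 981 genes called instead of 984.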

Other observations

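For each of the 10 genes, the 2 others whose levels followed it most closely over the 12 libraries were found by Pearson's r. For *IFIT1* they were *ZNFX1* (r = 0.995) and *OAS1* (0.994), for *IFIT2* *IFI44* (0.998) and *OAS2* (0.997), and for *IFIT3* *SP110* (0.997) and *SP100* (0.997). *IFIT5* was closest to *PARP12* (0.997) and *IFIH1* (0.996), *IFI6* to *MYD88* (0.992) and *MX2* (0.991), and *IFI44L* to *OAS2* (0.998) and *ISG15* (0.995). *IFI27* was closest to *STAT2* (0.997) and *BAK1* (0.996). *IFITM1* was closest to *MOV10* (0.996) and *SP110* (0.994), *IFITM3* to *BST2* (0.998) and *CNDP2* (0.998), and *IFITM2* to *CD82* (0.975) and *CISH* (0.961). These values describe 12 libraries of 6 conditions, among 14278 genes.

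In unstimulated cells siPDL1-2 raised 2 of the 12 receptor and signalling genes by limma, against 4.84% of all genes higher, without a call among the 10 genes. *IFNAR1*, a subunit of the type I interferon receptor, stood at 23.9 and 23.3 CPM in siNC and 48.4 and 44.4 CPM in siPDL1-2 (0.94 ± 0.06, FDR = 2.53e-08), and *JAK2* rose by 0.79 ± 0.07. With siPDL1-1 in unstimulated cells the same 2 genes passed the FDR but not the fold threshold (*IFNAR1* 0.52 ± 0.06, FDR = 9.68e-06, and *JAK2* 0.57 ± 0.07, FDR = 3.07e-05). There *IRF9* was called (0.74 ± 0.06, FDR = 6.04e-07), 1 of the 12, against 2.55% of all genes higher. *LIPA*, which spans *IFIT1*, *IFIT2* and *IFIT3* on the other strand, was higher in unstimulated cells with both siRNAs (0.85 ± 0.05 with siPDL1-1 and 0.83 ± 0.05 with siPDL1-2), where those 3 genes were called with siPDL1-1 and not with siPDL1-2. After IFNγ *LIPA* was called with siPDL1-1 (0.76 ± 0.05, FDR = 1.28e-08) and not with siPDL1-2 (0.23 ± 0.05, FDR = 0.00162), as were those 3 genes. Its siPDL1-2 interaction was called lower (-0.60 ± 0.07, FDR = 4.36e-05). The part of *LIPA* reads in the levels of the 3 genes was not tested.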
